A study of Mus musculus with 6 samples.

Results

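The 10 genes described here encode receptors of the tumor necrosis factor (TNF) family and the proteins that carry their signal: the receptors Tnfrsf9, Tnfrsf1a, Tnfrsf1b and Fas, the adaptors Traf1, Traf2 and Traf3, the cellular inhibitors of apoptosis Birc2 and Birc3, and the caspase regulator Cflar. They were selected by name from the 41819 genes of the deposited table, with results of these same dishes known. Tnfrsf9 and Traf1 were chosen because they were among the genes the study called in this comparison, and the other 8 were chosen as their pathway partners. The differences between the groups are therefore given for the 10 genes as a description, not as a test. All 10 were counted well enough to pass the filter on low counts, which left 11509 genes.

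The cells were mouse 3T3 fibroblasts of a single clone carrying a lentiviral cassette, in which doxycycline (DOX) switches on human poly(ADP-ribose) glycohydrolase (hPARG), the enzyme that degrades poly(ADP-ribose), together with the fluorescent protein mClover3. The 3 hPARG dishes received 500 ng/ml doxycycline for 72 h. The 3 control dishes were of the same clone, carried the same cassette and received none, and both groups were kept in puromycin. The comparison asks which genes differ in expression when the cellular level of PARG is raised. A group given doxycycline without the cassette is not part of these data, so that an effect of doxycycline and one of hPARG cannot be told apart in them. For selected genes, the paper describes qPCR in cells without the cassette that were given doxycycline. The sample labels name wells of a 6-well plate and call the cell type malignant, whereas the methods describe 10 cm dishes; the word dish is used here. All dishes were of a single clone, and the spread between them is a spread between cultures of that clone.

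TNF family receptors sit in the plasma membrane and have no enzymatic activity of their own. When a trimeric ligand binds, they recruit TRAF adaptors, and TRAF2 brings in the ubiquitin ligases cIAP1 (Birc2) and cIAP2 (Birc3), which decorate the receptor complex with ubiquitin chains that serve as a platform for the activation of NF-kB. Some receptors of the family can lead to cell death through FADD and caspase-8, a step that c-FLIP (Cflar) restrains. TRAF3 together with TRAF2 and the cIAPs keeps the kinase NIK low in unstimulated cells. Tnfrsf9, Traf1, Birc3, Fas and Cflar are themselves known targets of NF-kB, so that several components of the pathway are also among its products.

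RNA was poly(A)-selected, and the authors' counts per gene were used, with totals of 21619908 to 25263818 per dish. Levels are given as CPM (counts scaled to a fixed total per library) after TMM normalization, as mean ± SD over 3 dishes, and differences as log2 fold changes of hPARG against control with their standard error (SE). The mouse Parg gene was at 51.3 ± 4.63 CPM in control and 52.7 ± 4.31 CPM in hPARG dishes (SD, n = 3), and the human cassette has no row in the table, so that induction is not checked by these counts. By Western blot, the paper reports more hPARG protein and less poly(ADP-ribose) with doxycycline. Of 10 fibroblast markers, all 10 were over 3 counts in some dish, although Lum reached at most 4 counts and Dcn at most 15. The summed level of the 10 markers was 6582 to 7293 CPM in control and 7326 to 8144 CPM in hPARG dishes, without overlap. Most of this sum came from Vim, Col1a2 and S100a4, and not every marker followed it. Pdgfra was counted 1638, 1612 and 1234 times in control and 1056, 1329 and 918 times in hPARG dishes. Markers of other cell types were far lower. The macrophage markers summed to 5.29 to 9.25 CPM in control and 5.40 to 8.95 CPM in hPARG dishes, with Adgre1 at 0 in every dish. The T cell markers summed to 2.22 to 2.38 CPM and 1.11 to 1.70 CPM, nearly all from Lck (47 to 61 counts and 27 to 37 counts), with Cd3e and Cd8a at 0 in every dish. Endothelial markers (0.896 to 1.37 CPM in control, 0.742 to 0.871 CPM in hPARG dishes) and epithelial markers (0.585 to 1.04 CPM and 0.596 to 0.963 CPM) were low throughout. The part of the fibroblast and Lck differences in the values below was not tested.

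The starts of 3 genes are shown, Tnfrsf9 and Traf1 because their levels differed most between the groups, and Traf3 because it was the only other member whose window held an NF-kB consensus match. RefSeq windows of 300 bases, from 250 bases before to 50 bases after an annotated start, were matched for all 10 members (12 windows, GRCm38.p6). The NF-kB consensus was searched on both strands and is set in capitals below. It was found in 2 of the 12 windows and in 1480 of 32851 windows of all genes (4.51%). The Tnfrsf9 window lies at chr4:150927749-150928048 on the plus strand, inside the gene as annotated, and holds 3 overlapping matches whose first bases are at positions -43, -42 and -42 from the start, the last of them on the opposite strand. The Traf3 window is chr12:111166120-111166419 on the plus strand, with 1 match at -10. The Traf1 window is chr2:34961723-34962022 on the minus strand, with no match, as in the other Tnfrsf9 window (chr4:150919905-150920204). A match describes the letters and not a site in use, and nothing is drawn from its absence.
Tnfrsf9: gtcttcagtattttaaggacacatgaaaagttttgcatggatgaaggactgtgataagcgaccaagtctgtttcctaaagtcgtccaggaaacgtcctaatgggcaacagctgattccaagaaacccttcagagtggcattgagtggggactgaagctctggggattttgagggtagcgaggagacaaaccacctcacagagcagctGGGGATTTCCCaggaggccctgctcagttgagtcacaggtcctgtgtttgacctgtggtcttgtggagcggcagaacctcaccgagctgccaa
Traf3: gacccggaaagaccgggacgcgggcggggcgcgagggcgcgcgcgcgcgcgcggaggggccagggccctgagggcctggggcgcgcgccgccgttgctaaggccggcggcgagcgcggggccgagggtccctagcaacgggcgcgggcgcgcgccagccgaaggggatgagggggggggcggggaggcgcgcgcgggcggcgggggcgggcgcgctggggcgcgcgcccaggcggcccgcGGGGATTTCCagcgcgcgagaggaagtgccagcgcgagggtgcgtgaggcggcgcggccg
Traf1: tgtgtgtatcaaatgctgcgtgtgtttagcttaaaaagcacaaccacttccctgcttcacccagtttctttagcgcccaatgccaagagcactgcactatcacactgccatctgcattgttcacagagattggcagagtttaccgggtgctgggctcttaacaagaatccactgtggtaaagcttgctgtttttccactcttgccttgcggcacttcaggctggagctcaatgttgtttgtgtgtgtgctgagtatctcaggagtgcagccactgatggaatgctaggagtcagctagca

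Among the 10 genes, Tnfrsf9 and Traf1 differed most between the groups, with levels more than 2-fold lower in hPARG dishes. Fas and Birc3 came next, at 1.86-fold and 1.495-fold lower, and Traf2 was 1.29-fold lower. The receptors Tnfrsf1a and Tnfrsf1b, the adaptor Traf3 and the ligase Birc2 differed by at most 1.20-fold, and Cflar was the only member with a higher mean in hPARG dishes. In RNA from whole dishes, fewer cells expressing a gene and less of its RNA per cell cannot be told apart. The plot of all dishes shows these values gene by gene.

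**Figure D1:**
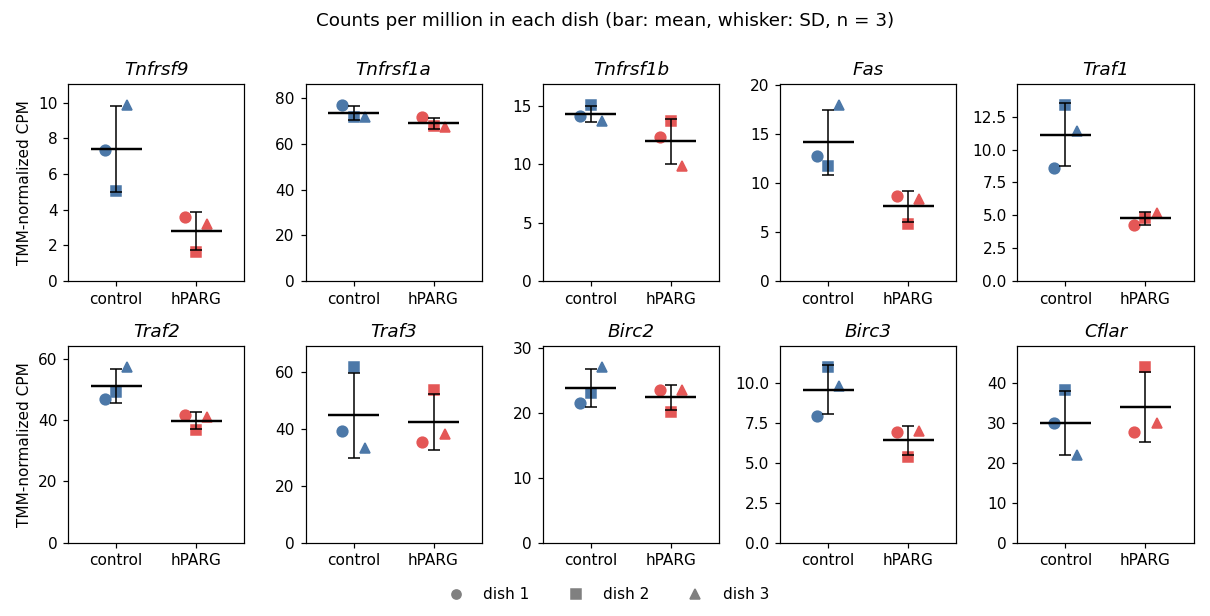
TMM-normalized CPM (vertical axis, linear, from 0) of the 10 genes in each control (blue) and hPARG (red) dish, with symbols for dishes 1 to 3, a bar at the mean and whiskers of 1 SD (n = 3). The 3 hPARG dishes lie below the 3 control dishes for Tnfrsf9, Fas, Traf1, Traf2, Birc3 and, narrowly, Tnfrsf1a, and the groups overlap for Tnfrsf1b, Traf3, Birc2 and Cflar.

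The gene for Tnfrsf9 (CD137), a costimulatory receptor best known from activated T cells, lies at chr4:150914562-150946102 on the plus strand (GRCm38, as are all gene positions below). It was read 188, 117 and 209 times in control dishes 1 to 3 and 78, 39 and 70 times in hPARG dishes 1 to 3, which is 7.34, 5.03 and 9.85 CPM against 3.58, 1.61 and 3.21 CPM. The highest hPARG dish was below the lowest control dish, and within each group dish 2 was the lowest. The mean was 7.41 ± 2.41 CPM in control and 2.80 ± 1.05 CPM in hPARG dishes, a log2 fold change of -1.41 (SE 0.340), or 2.65-fold lower. Fits without 1 of the dishes gave values from -1.63 to -1.12.

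Tnfrsf1a (TNFR1), the receptor through which soluble TNF acts on most cell types, lies at chr6:125349362-125362484 on the plus strand. It had 77.0, 72.1 and 71.8 CPM in control and 71.6, 67.9 and 67.6 CPM in hPARG dishes. The groups were separated by a gap far smaller than the spread within either of them, and they overlapped when CPM were scaled to library totals or when RPKM were used. The means were 73.6 ± 2.94 CPM and 69.0 ± 2.26 CPM, with a log2 fold change of -0.09 (SE 0.091).

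Tnfrsf1b (TNFR2), the second TNF receptor, which binds TRAF2 directly and lacks a death domain, lies at chr4:145213463-145246870 on the minus strand. Its levels were 14.2, 15.1 and 13.7 CPM in control and 12.3, 13.7 and 9.86 CPM in hPARG dishes. The ranges met at 13.7 CPM, where control dish 3 and hPARG dish 2 lay. The log2 fold change was -0.26 (SE 0.141), from 14.3 ± 0.682 CPM to 11.97 ± 1.96 CPM.

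Fas, a death receptor of the family, which binds FADD directly, lies at chr19:34290666-34327772 on the plus strand. It was counted 327, 274 and 381 times in control and 189, 141 and 183 times in hPARG dishes, which is 12.8, 11.8 and 18.0 CPM against 8.66, 5.81 and 8.40 CPM. As for Tnfrsf9, no hPARG dish reached the lowest control dish, control dish 3 was the highest of all and dish 2 was the lowest in each group. The mean was 14.2 ± 3.32 CPM in control and 7.62 ± 1.58 CPM in hPARG dishes, a log2 fold change of -0.89 (SE 0.214) that ranged from -1.01 to -0.69 with 1 dish left out. Fas was thus the member nearest to a 2-fold difference from below, and Traf1 the nearest from above.

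Traf1, an adaptor that lacks the RING domain of its relatives and works in complexes with TRAF2, lies at chr2:34941750-34961772 on the minus strand. It was counted 220, 311 and 242 times in control and 93, 117 and 113 times in hPARG dishes, which is 8.59, 13.4 and 11.4 CPM against 4.26, 4.82 and 5.18 CPM. The hPARG dishes lay close together, and the highest of them was well below the lowest control dish. The mean was 11.1 ± 2.41 CPM in control and 4.76 ± 0.464 CPM in hPARG dishes, a log2 fold change of -1.22 (SE 0.188), or 2.33-fold lower, with a range from -1.37 to -1.07 when 1 dish was left out.

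Traf2, the adaptor that recruits the cIAPs, lies at chr2:25517982-25546940 on the minus strand. Its levels were 47.0, 49.4 and 57.4 CPM in control and 41.9, 36.7 and 40.9 CPM in hPARG dishes. All hPARG dishes were below all control dishes, but control dish 1 and hPARG dish 1 were near each other. The log2 fold change was -0.36 (SE 0.115), from 51.3 ± 5.47 CPM to 39.8 ± 2.76 CPM.

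Traf3, the adaptor that with TRAF2 targets NIK for degradation, lies at chr12:111166370-111267153 on the plus strand. It had 39.5, 61.9 and 33.3 CPM in control and 35.5, 53.7 and 38.2 CPM in hPARG dishes. Dish 2 was the highest in each group, and the groups overlapped over nearly their whole range. The log2 fold change of -0.08 (SE 0.252) turned to 0.22 without control dish 2 and to 0.03 without hPARG dish 1, so that no direction can be given.

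Birc2 (cIAP1) and Birc3 (cIAP2), closely related ubiquitin ligases, lie near each other on the minus strand of chromosome 9, at chr9:7818227-7837064 and chr9:7848699-7873186. Birc2 was at 21.5, 23.0 and 27.1 CPM in control and 23.5, 20.2 and 23.5 CPM in hPARG dishes, and Birc3 at 7.96, 11.01 and 9.80 CPM against 6.92, 5.36 and 6.97 CPM. Birc2 overlapped between the groups, with a log2 fold change of -0.09 (SE 0.127) that was 0.01 without control dish 3, whereas every hPARG dish was below every control dish for Birc3. The log2 fold change of Birc3 was -0.58 (SE 0.172), from 9.59 ± 1.54 CPM to 6.42 ± 0.918 CPM, and lay between -0.69 and -0.46 with 1 dish left out. Of the 50-base stretches of Birc3 transcripts, 7.25% also occur in transcripts of genes outside the 10 members and 1.40% in another member. For Birc2 these shares were 1.33% and 1.42%.

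Cflar, the gene for c-FLIP, the inactive relative of caspase-8, lies at chr1:58711508-58758884 on the plus strand. Its levels were 29.8, 38.0 and 22.0 CPM in control and 27.6, 43.9 and 30.0 CPM in hPARG dishes. As for Traf3, dish 2 was the highest in each group and the groups overlapped. The log2 fold change was 0.18 (SE 0.238), and it was -0.057 without hPARG dish 2 and -0.002 without control dish 3. Of the 50-base stretches of Cflar transcripts, 7.04% also occur in transcripts of genes outside the 10 members.

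Counted over the members, 9 of 10 log2 fold changes were below 0, with a median of -0.31, where the median over all 11509 genes tested was 0.004. With edgeR's quasi-likelihood test over all genes, at a Benjamini-Hochberg false discovery rate (FDR) under 0.05 and a difference over 2-fold, 0 of the 10 were called, against 10 of all genes (0.0869%). The FDR of the members ranged from 0.137 for Traf1 to 0.999. DESeq2 at the same thresholds called Tnfrsf9 and Traf1, against 22 of 12666 genes (0.174%), so that the call of these genes from these counts depends on the method. The paper also measured both genes by qPCR and reports them as lower in induced cells. At an unadjusted p under 0.05 in edgeR, 5 members were lower (Tnfrsf9, Traf1, Fas, Birc3 and Traf2), against 2.54% of all genes, and 6 members did not overlap between the groups in CPM, all of them lower in hPARG dishes, against 6.00% of all genes. Since the members were selected with these differences in view, nothing is read from these shares. The plot of log2 fold changes gives each member with its error and its range when dishes are left out.

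**Figure D2:**
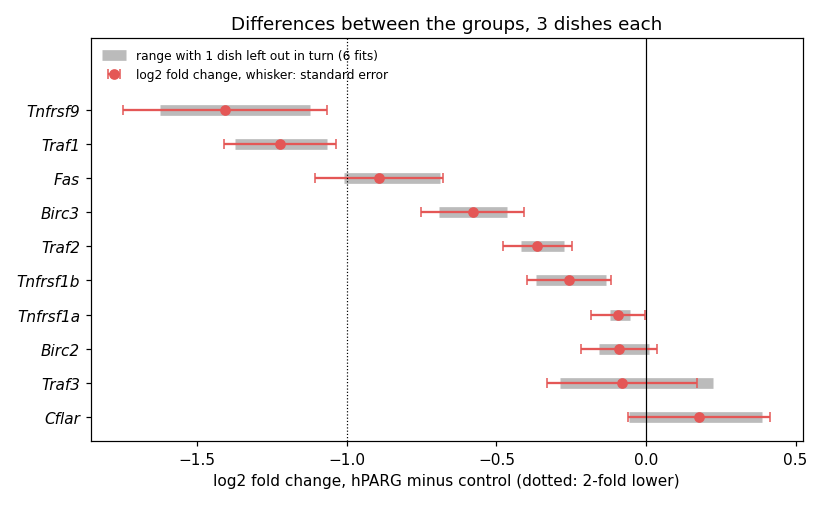
Log2 fold change of each member, hPARG minus control (horizontal axis, points, whiskers of 1 SE, 3 dishes a group), with a grey bar for the range over 6 fits that each leave out 1 dish and a dotted line at 2-fold lower. Tnfrsf9 and Traf1 lie left of the dotted line in all 6 of these fits, while the bars of Birc2, Traf3 and Cflar cross 0.

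Per length, as the authors' RPKM give it, the members were expressed over a wide range in control cells. Tnfrsf1a was the highest, at 26.4 to 29.6 RPKM, and Traf2 came next at 14.3 to 16.7 RPKM. Fas (5.78 to 8.21), Birc2 (5.50 to 6.65), Traf3 (4.09 to 8.16), Cflar (2.49 to 4.63) and Tnfrsf1b (3.21 to 3.78 RPKM) followed, each overlapping with its neighbour in this order of control means. Traf1 (1.98 to 3.17), Tnfrsf9 (1.77 to 3.24) and Birc3 (1.69 to 2.395 RPKM) had the lowest means and overlapped with one another. Traf1 and Birc3 lay below Tnfrsf1b in control dishes, whereas the highest Tnfrsf9 dish (3.24 RPKM) was just above the lowest Tnfrsf1b dish (3.21 RPKM). Only Tnfrsf1a and Traf2, Traf2 and Fas, and Tnfrsf1b and Traf1 were neighbours whose control dishes did not overlap. The lowest 3 in control thus included both genes with the largest differences between the groups. These 2 genes were chosen because they were called in this comparison, so that nothing is read from their rank. In hPARG cells Fas lay at 2.77 to 4.03 RPKM and moved from rank 3 to rank 6, while Tnfrsf9 lay at 0.550 to 1.20 RPKM, the lowest of the 10. Traf1 was at 0.958 to 1.13 RPKM, and Birc3, at 1.13 to 1.43 RPKM, moved from rank 10 to rank 8.

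Ratios of counts within a dish do not depend on how dishes are scaled to one another. For the cIAP genes, there were 0.371, 0.479 and 0.362 Birc3 counts per Birc2 count in control and 0.294, 0.265 and 0.297 in hPARG dishes. There were 0.183, 0.271 and 0.199 Traf1 counts per Traf2 count in control and 0.102, 0.132 and 0.127 in hPARG dishes. In both pairs the groups did not overlap. How often the ratios of other gene pairs separate in this way was not computed. For Tnfrsf9 and its ligand gene Tnfsf9, the ratio was 0.460, 0.415 and 0.683 in control and 0.241, 0.121 and 0.197 in hPARG dishes, again without overlap. As Traf1 and Tnfrsf9 were chosen because they were called in this comparison, nothing is read from the separation of their ratios. In the TNF receptor pair, Tnfrsf1b counts per Tnfrsf1a count were 0.184, 0.209 and 0.191 in control and 0.172, 0.202 and 0.146 in hPARG dishes, and the ranges overlapped. Fas counts per Cflar count (0.310 to 0.818 in control, 0.132 to 0.313 in hPARG dishes) overlapped too, as hPARG dish 1 (0.313) lay just above control dish 2 (0.310). The part of the length pattern in this overlap was not tested.

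Apart from the members, 98 genes of the pathway were listed by role, and 64 of them passed the filter on low counts. In edgeR's quasi-likelihood test 0 of the 64 were called in either direction, DESeq2 called 0, and 1 gene, Bid, had an unadjusted p under 0.05 in edgeR. Their log2 fold changes lay between -0.31 and 0.27, with 40 below 0 and 24 above, and a median of -0.04. The plot of the lists sets them beside the members and all genes tested, where 5% of genes lay below -0.28 and 5% above 0.32.

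**Figure D3:**
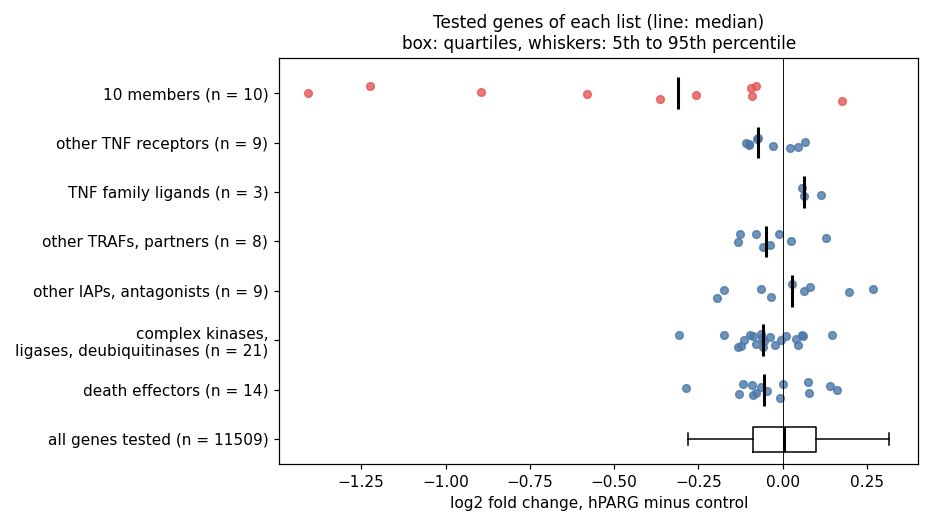
Log2 fold change, hPARG minus control (horizontal axis), of the tested genes of each list (points, spread vertically for legibility), with a line at the median, and a box (quartiles, median) with whiskers from the 5th to the 95th percentile for all 11509 genes tested. The members (red) reach down to -1.41, while the 64 other pathway genes (blue) lie between -0.31 and 0.27.

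Few ligands of the family were detected. Of 18 ligand genes 3 were tested, with a median log2 fold change of 0.06 and 0 called in either direction, and 11 were at or under 3 counts in every dish, which corresponds to 0.119 to 0.139 CPM. Of these, 7 were at 0 counts in all 6 dishes, among them Fasl, the ligand of Fas. Tnf, a ligand of Tnfrsf1a and Tnfrsf1b, was counted 3, 0 and 0 times in control and 1, 0 and 0 times in hPARG dishes (Fasl, Tnf and Tnfsf9 are named here after their values were seen, as ligands of members). The ligand of Tnfrsf9 was present: Tnfsf9 was at 14.2 ± 1.93 CPM in control and 14.8 ± 1.49 CPM in hPARG dishes, a log2 fold change of 0.06 (SE 0.139). Tnfsf12 (TWEAK), the ligand gene with the highest level, was at 26.9 ± 2.73 CPM and 28.0 ± 2.38 CPM, with a log2 fold change of 0.06 (SE 0.119). The remaining one, Tnfsf18, had 10 to 38 counts in control and 17 to 41 counts in hPARG dishes, too few for a precise value (log2 fold change 0.11, SE 0.567).

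Of 24 other TNF receptor genes, 9 were tested and 0 were called in either direction, with a median log2 fold change of -0.07 and a range from -0.11 to 0.07. Tnfrsf12a (Fn14), the receptor of TWEAK, had the highest level, at 416.5 ± 62.7 CPM in control and 388.7 ± 107 CPM in hPARG dishes (log2 fold change -0.10, SE 0.210). Tnfrsf21, a death-domain receptor, had the difference farthest from 0 in this list, with 7.16 ± 1.01 CPM and 6.62 ± 1.27 CPM (log2 fold change -0.11, SE 0.184). None of the 9 had groups that did not overlap. Of the 24 genes, 3 were at 0 counts in all dishes: Cd40, Tnfrsf11a (RANK) and Tnfrsf13b (TACI), receptors that work through TRAFs (named after their values were seen).

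Among 9 other TRAF genes and TRAF partners, 8 were tested and 0 were called in either direction (median log2 fold change -0.05). Traf7, a relative that lacks the TRAF domain, had the highest level, at 128.4 ± 1.88 CPM in control and 140.2 ± 4.68 CPM in hPARG dishes. Its hPARG dishes all lay above its control dishes, as they did for 416 of the 11509 genes tested. Its log2 fold change was 0.13 (SE 0.087), with an FDR of 0.999 in edgeR's quasi-likelihood test, so that no difference is read from it. Traf4 had the largest difference of the list in size, from 82.1 ± 6.31 CPM to 74.8 ± 6.07 CPM (log2 fold change -0.13, SE 0.108), and the groups overlapped. Of 11 other IAP genes and IAP antagonists, 9 were tested and 0 were called, with a median of 0.03. Birc5 (survivin), which acts in cell division, was at 158.7 ± 20.7 CPM and 154.9 ± 13.5 CPM (log2 fold change -0.04, SE 0.127). Birc6, a giant ubiquitin ligase that restrains caspases, had the largest log2 fold change, 0.27, with an SE of 0.319, since its dishes ranged from 1433 to 2908 counts in control and from 1574 to 3808 counts in hPARG cells.

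The enzymes that assemble and edit the receptor complex were listed as 22 genes, of which 21 were tested and 0 were called in either direction (median log2 fold change -0.06). Cyld, a deubiquitinase that removes the chains built by the cIAPs and the linear ubiquitin ligase, had the highest level, at 144.0 ± 32.8 CPM in control and 141.6 ± 27.3 CPM in hPARG dishes (log2 fold change -0.02, SE 0.192). Tnfaip3 (A20), which like Traf1 and Birc3 is a known target of NF-kB and dampens TNF signalling, was at 35.5 ± 8.76 CPM and 28.7 ± 2.70 CPM. Its log2 fold change of -0.31 (SE 0.178) was the lowest among the 64 genes, and the groups overlapped.

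The 14 death effectors were all tested, and 0 were called in either direction (median log2 fold change -0.06). Mcl1, an anti-apoptotic relative of BCL2, had the highest level, at 194.3 ± 12.4 CPM and 188.0 ± 6.81 CPM (log2 fold change -0.05, SE 0.095). Bid, the protein cut by caspase-8 to carry the death signal to mitochondria, was counted 1255, 1053 and 1124 times in control and 888, 969 and 874 times in hPARG dishes, which gives 49.1 ± 3.84 CPM against 40.2 ± 0.407 CPM without overlap. Its log2 fold change was -0.29 (SE 0.099), with an FDR of 0.999 in edgeR's quasi-likelihood test. Mlkl, at 81.8 ± 2.60 CPM and 74.8 ± 1.16 CPM, was the only other of the 14 without overlap (named after its values were seen). Over all genes tested, 6.00% did not overlap and were lower in hPARG dishes. Fadd and Casp8, the direct partners of Fas and Cflar, were at 14.2 ± 1.21 CPM and 47.5 ± 0.598 CPM in control and at 13.4 ± 0.0899 CPM and 47.3 ± 1.96 CPM in hPARG dishes (named after their values were seen), with overlap for both.

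Among all tested genes, dish 2 of each group differed from dishes 1 and 3 with the length of the gene, and 4 members moved the same way in it. The difference between dish 2 and the mean of dishes 1 and 3, in log2 CPM, had a median of -0.35 in control and -0.37 in hPARG cells over the tenth of tested genes with the shortest exons (median 1364 bases), and of 0.37 and 0.36 over the tenth with the longest (median 12640 bases). Cflar, with 12669 exon bases, was 0.57 and 0.61 higher in dish 2 of control and hPARG cells, and Traf3, with 7350 bases, 0.77 and 0.54 higher. Fas, with 2062 bases, differed by -0.36 and -0.55, and Tnfrsf9, with 2722 bases, by -0.75 and -1.04. Dish 2 was thus low for Fas and Tnfrsf9 and high for Traf3 and Cflar in each group. Other members did not order by length in this way: Tnfrsf1a, with 2591 bases, was at -0.045 and -0.035, and Tnfrsf1b, with 3818 bases, at 0.11 and 0.31. Traf1 (8819 bases), at 0.43 in control and 0.04 in hPARG cells, and Birc3 (5009 bases), at 0.32 and -0.37, did not repeat between the groups in this way. In edgeR's quasi-likelihood fit with a length term, the log2 fold change was -1.38 for Tnfrsf9 (FDR 0.207) and -1.26 for Traf1 (FDR 0.0285), against -1.41 and -1.22 without it.

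**Figure D4:**
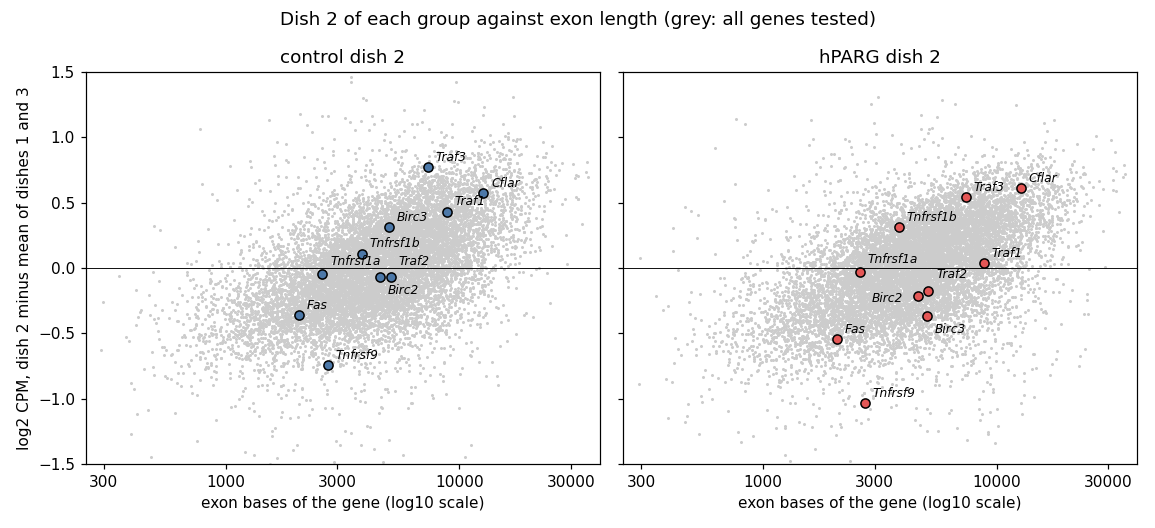
Log2 CPM of dish 2 minus the mean of dishes 1 and 3 (vertical axis) against the exon bases of the gene (horizontal axis, log10 scale), for control (left) and hPARG cells (right), with all tested genes in grey and the members named. In each group Tnfrsf9 and Fas lie below 0, and Traf3 and Cflar above it.

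The tested genes whose log2 CPM followed each of the 2 leading members most closely were found by Pearson's r over the 6 dishes, a description in which the points share the groups and the length pattern of dish 2. For Tnfrsf9 these were Syf2 (r = 0.994), Slpi (0.991), Nars2 (0.991), Tmem69 (0.988) and the member Fas (0.987). Slpi, a secreted inhibitor of leukocyte proteases, had a log2 fold change of -1.17 (SE 0.304), while those of Syf2 (-0.20), Nars2 (-0.32) and Tmem69 (-0.22) were small. For Traf1 they were Cxcl10 (0.991), Rgs2 (0.987), Ccl20 (0.985), Wdr43 (0.984) and Bbc3 (0.984). Cxcl10 and Ccl20, both chemokines, had log2 fold changes of -1.36 (SE 0.150) and -3.30 (SE 0.287), and Bbc3, the pro-apoptotic gene PUMA, one of -0.49 (SE 0.104). The log2 fold change was -0.56 (SE 0.125) for Rgs2 and -0.19 (SE 0.088) for Wdr43. No gene was among the 5 of both, from which nothing is read. Between the members themselves, Tnfrsf9 and Traf1 had an r of 0.744. Fas followed Tnfrsf9 (0.987) and Traf2 (0.982), Traf2 followed Tnfrsf9 (0.941), Birc3 followed Traf1 (0.909), and Traf3 followed Cflar (0.895).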

How the data were processed

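RNA from 6 dishes of 3T3 cells (3 control, 3 hPARG) was analysed. The authors made poly(A) libraries, sequenced 150 bp paired-end reads and mapped them to GRCm38 (Ensembl release 96) in CLC Genomics Workbench 12.0, setting the cost of a mismatch to 2 and of an insertion or deletion to 3, both the length and the similarity fraction to 0.8, and at most 10 hits per read. The deposited counts per gene are not normalized, and whether strand was used in counting is not given in the sources used here. The deposited RPKM values are counts divided by gene length and by a library total that is not stated. The columns with the authors' own fold changes and p-values were not used, nor were their TPM and CPM columns. All 41819 identifiers were found in GENCODE M21, and 177 names differed.

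Genes were filtered with filterByExpr (minimum count 10), normalized by TMM and tested by quasi-likelihood (glmQLFit, glmQLFTest; edgeR 4.0.16 with limma 3.58.1 in R 4.3.3), without a block, as the methods name no pairing. Genes were called at a Benjamini-Hochberg FDR under 0.05 over the 11509 genes tested and a difference over 2-fold. Each SE was taken as the size of the log2 fold change over the root of its F statistic, and log2 CPM have a prior count of 2. The floor was set at 3 counts and stands for counting error alone, as reads without molecular identifiers were counted. The dishes hold 21619908 to 25263818 counts, and with 3 dishes a group an exact permutation test cannot give a two-sided p under 0.1. Nothing states that dishes were independent beyond being separate cultures of a single clone. The fits were also run on simulated counts, with planted changes larger than any difference among the members and without a length pattern. That run cannot show how the fits perform for differences of the size seen here.

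The members and the gene lists were chosen with earlier results of these data known. The rule for other named genes was the gene with the highest CPM and the one with the largest absolute log2 fold change in each list, any listed gene called with or without the replicate block, the 5 genes most correlated with Tnfrsf9 and with Traf1, and the cell type markers. Alternatives were DESeq2 1.42.0, its size factors in edgeR, scaling by library size alone, fitting without the filter, a minimum of 10 counts in each dish, FDR alone, the replicate block, a length term (a spline of exon length with 4 degrees of freedom per dish), both together, and each dish left out in turn. Promoter windows are from RefSeq (GRCm38.p6).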

Additional observations from a re-analysis of the deposited data

How the results depend on the processing

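The number of genes called among all tested was 10, and 3 to 13 with 1 dish left out, with the lowest values without hPARG dish 1 (3) and hPARG dish 3 (5). It was 22 of 12666 with DESeq2 (0.174%), 16 of 16898 without a filter (0.0947%) and 19 of 11509 with a length term (0.165%). Among the 10 members, 0 were called, and also 0 with 1 dish left out, with other scaling, with at least 10 counts in every dish or at FDR alone. DESeq2 called 2 (Tnfrsf9, Traf1), and 1 (Traf1) was called both without a filter and with a length term. With the replicate number as a block in edgeR's quasi-likelihood fit (replicate block, paired analysis), 23 genes were called (0.200%). Of these, 2 were members (Tnfrsf9, FDR 0.00123, and Traf1, FDR 0.000413). With the length term added, 25 genes were called (0.217%), 2 of them members. At FDR alone with the block, 330 genes were called (2.87%), 4 of them members (also Fas and Traf2). Of the other pathway genes, 1 was called there (Bid, FDR 0.0464), and 0 were called under any other setting. Since the members were selected with these differences in view, nothing is read from how many of them were called. Nothing states that equal numbers share a batch: the deviations of same-numbered dishes from their group means correlated at 0.0963, 0.610 and 0.168, and only the dishes numbered 2 correlated best with their own number. Members whose groups did not overlap numbered 6, and 5 on RPKM or on CPM by library total. The log2 fold change changed sign for Traf3 without control dish 2 or hPARG dish 1 (range over the dishes left out -0.29 to 0.22), for Birc2 without control dish 3 (-0.16 to 0.01), and for Cflar without control dish 3 or hPARG dish 2 (-0.057 to 0.39). The causes of these shifts were not tested. The scaling moved the median of all genes to between -0.02 and 0.009. With 3 dishes a group and SEs from 0.091 (Tnfrsf1a) to 0.340 (Tnfrsf9) among the members, small differences were not detectable in the fit without a block. With the replicate block the SEs were smaller, from 0.058 (Tnfrsf1a) to 0.181 (Tnfrsf9). Without the block, the SE did not follow the number of reads alone. It was 0.172 for Birc3, with 130 to 256 counts a dish, and 0.252 for Traf3, with 706 to 1439 counts.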
